A study of Mus musculus with 71 samples.

Results

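The genes described here encode the voltage-gated sodium and calcium channels. A gene was taken when its symbol in the deposited tables was an Scn name ending in a or b, Cacna1a to Cacna1i, Cacna1s, Cacna2d1 to Cacna2d4 or Cacnb1 to Cacnb4, and measured values played no part in the choice. The rule gave 32 of the 37681 genes of the tables, under 31 symbols, because Scn8a has a second, short entry. They comprise 10 entries for sodium channel pore subunits, 4 sodium channel beta subunits, 7 high-voltage-activated and 3 low-voltage-activated calcium channel pore subunits, 4 alpha2delta subunits and 4 calcium channel beta subunits. The rule does not match Scn2a1, the former symbol of the brain sodium channel gene Scn2a, so that gene is given alongside and is not counted.

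RNA-seq was carried out on micro-punches of nucleus accumbens (NAc), ventral tegmental area (VTA) and prefrontal cortex (PFC) of adult wild type C57BL/6 mice. After training to respond for food, the mice had self-administered cocaine intravenously, or saline in the control groups, and were taken at 1 day or 28 days of abstinence. Crossing region, time and treatment gave 12 groups. The 71 libraries divide into 6 per group, other than 5 for VTA saline at 28 days. No group carried a transgene or a further agent, and saline animals had the same catheter surgery and sessions as cocaine animals. Mice of both sexes were used, and the sex behind a single library is not given in the sources used here. A punch holds all cell types of the region, so fewer cells of a type and less RNA per cell cannot be told apart in any value below. The labels do not say that each library is 1 mouse, and the p-values therefore measure the spread between libraries.

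Voltage-gated sodium channels open on depolarization and carry the rising phase of the action potential. Each has 1 large pore subunit, named Scn with a final a, which is joined by beta subunits that alter its gating and its anchoring in the membrane. Voltage-gated calcium channels turn depolarization into calcium entry, which triggers transmitter release at terminals, shapes firing in dendrites and signals to the nucleus. Their pore subunits (Cacna1) assemble, in the high-voltage-activated types, with an intracellular beta subunit (Cacnb) and an extracellular alpha2delta subunit (Cacna2d), both of which raise the number of channels at the surface. Dopamine neurons of the VTA use L-type and T-type calcium currents in pacemaking and burst firing, and medium spiny neurons of the NAc depend on sodium and calcium channels for their transitions to firing.

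Because the study concerned promoters and the transcription factor Nr4a1, promoters of the genes described below were read from RefSeq where it had them (mouse build GRCm38.p6), as 250 bases before to 50 bases after the annotated start. The tables held 32 promoters for 23 of the 31 symbols, some genes having several starts, and none for Cacna1g, Cacna1h, Cacna1a or Scn3a. The promoters of the members had a median GC content of 61.2%, and all 32851 promoters one of 52.7%. The monomer site of the Nr4a family, AAAGGTCA, was searched on both strands and occurs in 1.51% of all promoters, and 1 of the 32 member promoters held it, the second start of Scn8a. The cAMP response element TGACGTCA occurs in 1.79% of all promoters and in 0 of the 32. The GC box GGGCGG occurs in 35.7% of all promoters and in 14 of the 32, and the TATA box TATAAA in 13.6% and in 1, that of Cacna1d. A match is a run of letters, and its absence says only that these letters are not in the window. Scn4b and Scn2b are shown because they are neighbours with unlike levels across regions, Scn8a because it held the Nr4a site and Cacna1c because it is the member that passed the test after cocaine. Capitals mark the matches, which in Cacna1c are 6 GC boxes, of which 5 overlap. The start of Cacna1c shown is 1 of 3, and the other two hold none of these motifs and have a GC content of 51.3%, against 81.3% for this one.
Scn4b, chr9:45138374-45138673, plus strand: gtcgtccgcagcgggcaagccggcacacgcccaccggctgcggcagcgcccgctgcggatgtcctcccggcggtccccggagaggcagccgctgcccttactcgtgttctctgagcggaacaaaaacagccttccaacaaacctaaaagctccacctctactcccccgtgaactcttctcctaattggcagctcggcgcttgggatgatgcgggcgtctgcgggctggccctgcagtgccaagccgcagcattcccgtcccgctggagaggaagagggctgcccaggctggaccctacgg
Scn2b, chr9:45117626-45117925, plus strand: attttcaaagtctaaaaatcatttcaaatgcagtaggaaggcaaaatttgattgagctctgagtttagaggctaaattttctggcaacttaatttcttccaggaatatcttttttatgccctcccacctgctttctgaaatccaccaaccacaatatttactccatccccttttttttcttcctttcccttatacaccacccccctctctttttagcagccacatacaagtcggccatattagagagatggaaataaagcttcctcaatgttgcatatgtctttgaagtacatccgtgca
Scn8a, second start, chr15:100936021-100936320, plus strand: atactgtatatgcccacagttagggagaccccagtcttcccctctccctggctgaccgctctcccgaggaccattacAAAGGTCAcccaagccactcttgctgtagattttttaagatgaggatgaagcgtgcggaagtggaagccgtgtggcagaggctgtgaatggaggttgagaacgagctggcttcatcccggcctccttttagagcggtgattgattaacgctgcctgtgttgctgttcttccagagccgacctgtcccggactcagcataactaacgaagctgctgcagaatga
Cacna1c, 1 start of 3, chr6:119108446-119108745, minus strand: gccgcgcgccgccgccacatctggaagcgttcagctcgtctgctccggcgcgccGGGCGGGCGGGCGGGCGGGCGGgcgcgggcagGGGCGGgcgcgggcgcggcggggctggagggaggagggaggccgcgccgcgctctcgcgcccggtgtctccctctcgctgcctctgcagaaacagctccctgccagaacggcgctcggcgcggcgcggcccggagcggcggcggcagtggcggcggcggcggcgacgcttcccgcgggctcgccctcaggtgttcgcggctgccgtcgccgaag

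Levels are given as RPKM, reads per kilobase of gene length and per library size, so that genes can be compared. For a group of 6 libraries the lowest, the median and the highest are given. Libraries held between 20971967 and 49700932 reads on genes. Regional markers matched the labels. The summed level of 9 striatal medium spiny neuron genes was 1752 to 3901 RPKM in NAc libraries and 117 to 239 in VTA libraries, and that of 10 midbrain dopamine neuron genes was 657 to 2619 in VTA libraries and at most 37.3 in the others. Cortical excitatory neuron genes summed to 518 to 851 in PFC libraries, with Cux2 listed at 0 throughout, and to 25.7 to 315 in NAc and 41.4 to 112 in VTA libraries. The VTA, NAc and PFC tables are separate, so region and table cannot be told apart.

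A few libraries stood apart and are followed below. In 1 PFC saline library at 28 days the striatal genes summed to 1398 RPKM, against at most 150.0 in the other PFC libraries. At 1 day, 1 VTA cocaine library and 1 VTA saline library held 151 and 61.3 RPKM of choroid plexus genes, of which the other VTA libraries held at most 25.0.

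The beta subunits of the sodium channel were the most abundant class. In saline libraries at 28 days they made up a median of 54.4% of the summed RPKM of all 32 genes in the NAc, 51.9% in the VTA and 44.5% in the PFC. The 10 pore subunit entries of the sodium channel made up 5.51%, 12.1% and 8.57%. These shares leave out Scn2a1, which in the NAc and the PFC stood above each of the 10 entries, and would be larger with it. The calcium channel beta subunits took 17.2%, 13.4% and 26.4%, the alpha2delta subunits 11.2%, 10.8% and 7.09%, the high-voltage-activated pore subunits 7.21%, 8.16% and 8.99%, and the T-type pore subunits 3.66%, 4.74% and 4.77%. In each region, therefore, RNA of the auxiliary subunits exceeded RNA of the pore subunits among the 32 genes. The summed level of all 32 genes had a median of 998 RPKM in the NAc, 742 in the PFC and 511 in the VTA.

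**Figure D1:**
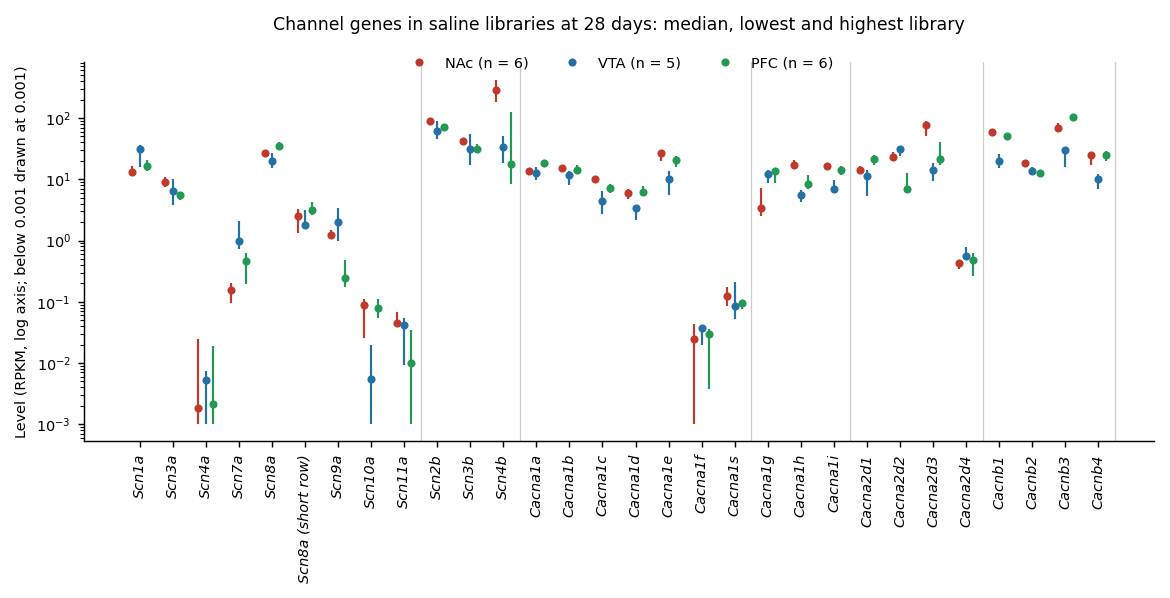
Level in RPKM (log axis) of channel genes in saline libraries at 28 days in NAc (6 libraries), VTA (5) and PFC (6). Points are medians and bars run from the lowest to the highest library. Levels span from under 0.01 RPKM for Scn4a to 292 RPKM for Scn4b in the NAc.

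Across regions, saline libraries at 28 days were compared in 1 edgeR model (quasi-likelihood test, Benjamini-Hochberg adjustment, adjusted p under 0.05 to be called). Of the 32 entries 29 passed the filter on low counts, which left out Scn4a, Scn11a and Cacna1f. Against the VTA, 18 of 29 were higher in the NAc and 4 were higher in the VTA, where 29.8% and 32.6% of all 17181 genes tested were called in these directions. Against the PFC, 9 were higher in the NAc and 7 in the PFC, beside 20.0% and 20.7% of all genes. Between the VTA and the PFC, 5 were higher in the VTA and 17 in the PFC, beside 29.8% and 28.1%. The median log2 difference of the 29 members was 0.55 for NAc minus VTA, 0.18 for NAc minus PFC and -0.66 for VTA minus PFC, and over all genes it was -0.03, 0.02 and 0.02. The 3 contrasts share their saline libraries, so their counts are not independent. Regions without overlap between their libraries were common. This was so for 14 members between the NAc and the VTA, 18 between the NAc and the PFC and 15 between the VTA and the PFC. Of all genes tested, 40.2%, 28.3% and 37.4% had no overlap in these contrasts.

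The same contrasts in the saline libraries at 1 day, which are other libraries, called most of the same members. For NAc against VTA, 21 members were called at both times, which was 95.5% of the 22 called at 28 days and 84.0% of the 25 called at 1 day. For NAc against PFC it was 16, which was 100% of the 16 at 28 days and 84.2% of the 19 at 1 day, and for VTA against PFC 19, which was 86.4% of 22 and 90.5% of 21. All of these had the same direction at both times. At 1 day 66.0%, 40.9% and 64.6% of all genes tested were called in the 3 contrasts. Of all genes called at 28 days, 82.6%, 75.1% and 82.5% were called at 1 day too, and of those called at 1 day 81.7%, 78.1% and 77.25% at 28 days, nearly all in the same direction.

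Among the sodium channel beta subunits, Scn4b (chr9:44946520-44962235 in mm9, plus strand), whose product blocks the open channel and gives resurgent current, set the NAc apart. In saline libraries at 28 days it stood at 179.9, 292 and 425 RPKM in the NAc (lowest, median, highest), at 18.7, 20.1, 34.2, 34.8 and 50.4 in the 5 VTA libraries and at 8.31, 17.9 and 127 in the PFC. It was the most abundant member in the NAc and lay above 99.5% of the genes with reads. No VTA or PFC library reached the lowest NAc library. The log2 difference was 3.38 (SE 0.63, adjusted p = 0.00015) for NAc minus VTA and 3.11 (SE 0.58, adjusted p = 0.00029) for NAc minus PFC by edgeR. The PFC library at 127 RPKM is the one with the striatal genes, and the next PFC library held 23.4. Without it the NAc minus PFC difference was 4.26 (SE 0.35). VTA minus PFC changed from -0.26 (adjusted p = 0.71) to 0.86 (SE 0.32, adjusted p = 0.029) in edgeR without that library, and at 1 day it was 1.25 (SE 0.32, adjusted p = 0.0017), with the VTA higher.

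Scn2b (chr9:44925959-44938153 in mm9, plus strand), the gene next to Scn4b and for the other disulphide-linked beta subunit, differed far less between regions. Its levels were 84.1, 88.6 and 93.3 RPKM in the NAc, 65.8, 71.7 and 79.4 in the PFC and 46.1, 57.8, 62.3, 66.7 and 88.9 in the VTA. The ratio of Scn4b to Scn2b RPKM in saline libraries had a median of 2.23 in the NAc at 1 day and 3.25 at 28 days, of 0.390 and 0.512 in the VTA, and of 0.201 and 0.254 in the PFC. Scn3b was at 39.1, 41.9 and 46.4 RPKM in the NAc and 28.3, 31.7 and 37.3 in the PFC, which did not pass the test (adjusted p = 0.16 by edgeR).

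**Figure D2:**
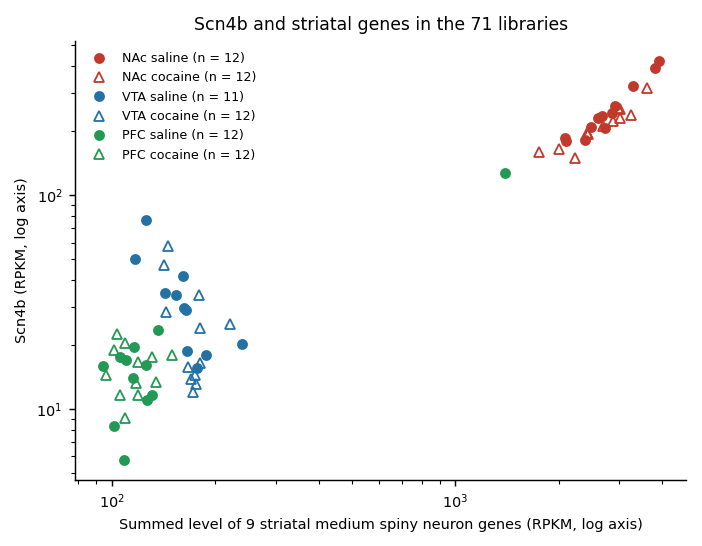
Scn4b level (RPKM) against the summed level of 9 striatal medium spiny neuron genes (RPKM) in each of the 71 libraries, both axes logarithmic, coloured by region. NAc libraries lie at the upper right, and the 1 PFC saline library at 28 days with 1398 RPKM of striatal genes lies near them at 127 RPKM of Scn4b.

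Of the sodium channel pore genes, Scn1a, the gene of the channel of fast-spiking interneurons, Scn8a, that of axon initial segments and nodes, and Scn3a, best known from the embryonic brain, were the most abundant in the NAc and the PFC among the members, and Scn2a1, outside the rule, stood above all of them there. Scn8a was at 32.2, 35.4 and 40.0 RPKM in the PFC, 25.8, 27.0 and 30.1 in the NAc and 15.3, 16.9, 20.2, 20.7 and 26.8 in the VTA. Scn1a was highest in the VTA instead. It was at 16.1, 26.5, 31.2, 32.5 and 36.7 RPKM in the VTA, 13.5, 16.3 and 20.7 in the PFC and 11.2, 12.9 and 16.3 in the NAc, with NAc minus VTA at -1.02 (SE 0.17, adjusted p = 5.3e-05 by edgeR) and the lowest VTA library within the range of the NAc. VTA minus PFC was 0.62 (SE 0.17, adjusted p = 0.0050 by edgeR), and NAc minus PFC, at -0.41 (SE 0.16), did not pass the test (adjusted p = 0.059 by edgeR). The ratio of Scn8a to Scn1a therefore had a median of 0.663 in the VTA, 2.22 in the NAc and 2.09 in the PFC at 28 days, and of 0.535, 1.30 and 1.73 at 1 day. At 28 days the highest ratio of a VTA saline library, 0.951, lay below the lowest of the NAc, 1.63, and at 1 day the highest of the VTA, 0.592, below the lowest of the NAc, 0.892. Scn2a1 stood at 39.7, 49.3 and 52.8 RPKM in the PFC, 29.0, 37.0 and 41.4 in the NAc and 12.7, 20.4, 20.4, 23.8 and 25.4 in the VTA.

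The short Scn8a entry (ENSMUSG00000090536, 1075 bases against 10969 for the full gene) was at 1.35, 2.55 and 3.27 RPKM in the NAc and 2.61, 3.20 and 4.18 in the PFC. It lies just before the full gene on chromosome 15, and reads on it were not added to those of the full gene.

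The sodium channel genes known from peripheral tissues were low, and several differed by region. Scn9a, a gene of sensory neurons of the pain pathway, was at 0.991, 1.82, 2.01, 2.94 and 3.45 RPKM in the VTA, 1.13, 1.23 and 1.48 in the NAc and 0.175, 0.241 and 0.472 in the PFC, with log2 differences of 2.92 (SE 0.29) for VTA minus PFC and 2.21 (SE 0.27) for NAc minus PFC. All libraries of the NAc and the VTA lay above all those of the PFC. Scn9a was also called higher in the VTA than in the NAc (-0.71, SE 0.27, adjusted p = 0.026 by edgeR), but the groups overlapped and the call was lost without any 1 of 4 libraries (edgeR adjusted p = 0.054 to 0.11).

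Scn7a, which encodes a sodium-level sensor of glia and does not open with voltage, was at 0.723, 0.905, 0.984, 1.18 and 2.11 RPKM in the VTA, 0.198, 0.467 and 0.623 in the PFC and 0.0938, 0.158 and 0.201 in the NAc. Every VTA library lay above every other. The log2 difference was -2.88 (SE 0.31, adjusted p = 3.3e-07) for NAc minus VTA and 1.24 (SE 0.29, adjusted p = 0.0014) for VTA minus PFC by edgeR. The second of these was not seen at 1 day, when VTA minus PFC was -0.06 (adjusted p = 0.88 by edgeR on recovered reads). Scn10a, another sensory neuron gene, was near the limit of detection. Its reads over all saline libraries of a group at 28 days numbered 110 in the NAc, 117 in the PFC and 8 in the VTA, and at 1 day 105, 84 and 3. The NAc held 11.7 times as many reads as the VTA, relative to library size, at 28 days (95% interval 5.75 to 27.9, counting error only) and 33.5 times as many at 1 day (11.2 to 165). Scn11a had 63 reads in the NAc, 39 in the VTA and 21 in the PFC at 28 days. Scn4a, the skeletal muscle gene, had at most 2 reads in a VTA saline library at 28 days.

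**Figure D3:**
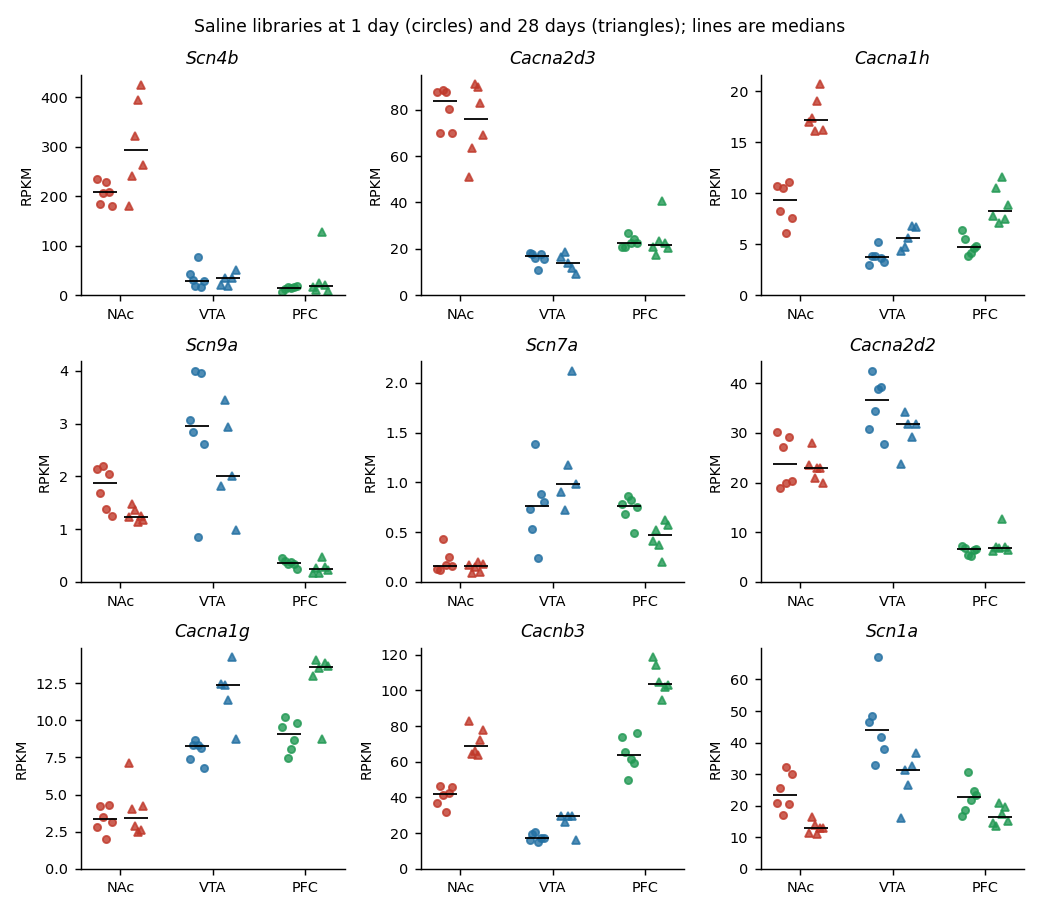
RPKM of selected members in the saline libraries of the 3 regions at 1 day (circles) and 28 days (triangles), with lines at the medians. For Scn4b the NAc libraries lie above those of the other regions, and for Cacna1g they lie below.

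Among the calcium channel pore genes, the T-type genes had unlike orders between regions. Cacna1g (chr11:94269705-94335414 in mm9, minus strand) was at 2.48, 3.42 and 7.13 RPKM in the NAc, 8.75, 13.6 and 14.0 in the PFC and 8.76, 11.3, 12.3, 12.4 and 14.2 in the VTA. No NAc library reached a VTA or PFC library. NAc minus PFC was -1.77 (SE 0.21, adjusted p = 2.8e-06) and NAc minus VTA -1.51 (SE 0.21, adjusted p = 6.95e-06) by edgeR. Cacna1h, a second T-type gene, was highest in the NAc, with 16.1, 17.2 and 20.7 RPKM in the NAc, 7.03, 8.26 and 11.6 in the PFC and 4.33, 4.67, 5.59, 6.65 and 6.80 in the VTA. Its difference was 1.77 (SE 0.15) for NAc minus VTA and 0.96 (SE 0.14) for NAc minus PFC. Cacna1i, the third, was at 14.2, 16.5 and 18.3 RPKM in the NAc and 6.00, 6.81, 7.02, 7.48 and 9.90 in the VTA. The ratio of Cacna1g to Cacna1i RPKM had a median of 0.217 in the NAc, 0.942 in the PFC and 1.66 in the VTA.

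Cacna1e, the R-type gene, was the most abundant high-voltage-activated pore gene of the NAc, at 20.3, 26.8 and 28.9 RPKM, and of the PFC, at 15.8, 21.0 and 24.4. In the VTA it was at 5.44, 5.80, 10.1, 10.8 and 13.7 RPKM, below every NAc library (NAc minus VTA 1.61, SE 0.21, adjusted p = 3.1e-06 by edgeR). The L-type genes Cacna1c and Cacna1d and the N-type gene Cacna1b were also called higher in the NAc than in the VTA, with log2 differences of 1.30, 1.02 and 0.52. The P/Q-type gene Cacna1a was highest in the PFC, at 16.9, 18.2 and 20.9 RPKM, against 13.5, 13.8 and 14.9 in the NAc. Cacna1s, the skeletal muscle gene, and Cacna1f, the retinal one, stayed at or below 0.208 RPKM in every saline library at 28 days.

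The alpha2delta subunits, of which the products of Cacna2d1 and Cacna2d2 bind gabapentin, were highest in different regions. Cacna2d3 was at 50.8, 75.9 and 91.1 RPKM in the NAc, 17.4, 21.6 and 40.6 in the PFC and 9.23, 11.7, 13.9, 16.5 and 18.5 in the VTA, with NAc minus VTA at 2.53 (SE 0.24) and NAc minus PFC at 1.59 (SE 0.22). Cacna2d2 was at 23.8, 29.2, 31.8, 31.8 and 34.2 RPKM in the VTA and 20.0, 22.9 and 28.0 in the NAc, but at 6.13, 6.92 and 12.7 in the PFC. The highest PFC values of both genes, 40.6 and 12.7 RPKM, came from the library with striatal genes, and the next PFC libraries held 23.4 and 7.10. Cacna2d1 was highest in the PFC, at 16.8, 21.1 and 25.2 RPKM. The most abundant alpha2delta gene was thus Cacna2d3 in the NAc and Cacna2d2 in the VTA, and in the PFC the medians of Cacna2d3 and Cacna2d1 lay within 1 RPKM of each other.

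All 4 calcium channel beta subunits were called higher in the NAc than in the VTA, and 3 of the 4, all but Cacnb2, higher in the PFC than in the VTA. Cacnb3 (chr15:98462651-98474961 in mm9, plus strand) was at 94.7, 104 and 118 RPKM in the PFC, 63.8, 69.0 and 82.6 in the NAc and 16.0, 26.1, 29.6, 29.8 and 29.8 in the VTA. The 3 regions did not overlap. VTA minus PFC was -2.17 (SE 0.13, adjusted p = 1.9e-10) and NAc minus VTA 1.55 (SE 0.13, adjusted p = 1.0e-08) by edgeR. Cacnb1 was at 56.1, 58.2 and 65.1 RPKM in the NAc, 46.3, 50.4 and 54.5 in the PFC and 15.3 to 26.0 in the VTA. Cacnb4, mutated in the lethargic mouse, was also lower in the VTA than in either other region (VTA minus PFC -1.47, SE 0.15), while Cacnb2 was highest in the NAc (NAc minus VTA 0.55, SE 0.10) and its VTA minus PFC difference, -0.02 (SE 0.10), did not pass the test (adjusted p = 0.87 by edgeR).

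The neighbours of the channels in the membrane were taken from lists of 14 sodium channel partners and 26 calcium channel partners, which include anchoring proteins, FGF homologous factors, stargazin-like subunits and release-site proteins. Of 25 calcium channel partners tested, 15 were higher in the NAc than in the VTA and 2 lower, and 4 were higher in the VTA than in the PFC and 17 lower. Of 13 sodium channel partners tested, 5 were higher in the NAc than in the VTA and 4 lower, and 3 were higher in the VTA than in the PFC and 5 lower. Between the NAc and the PFC, 7 calcium channel partners were higher in the NAc and 11 lower, and 4 sodium channel partners were higher and 6 lower. Of all 17181 genes tested, 29.8% were higher in the NAc than in the VTA and 32.6% lower. For the NAc against the PFC the shares were 20.0% and 20.7%, and for the VTA against the PFC 29.8% and 28.1%.

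Cocaine was compared with saline within each region and time point. Of the members, 1 passed the test in 1 of the 6 comparisons, Cacna1c in the VTA at 1 day, and its call was lost in most alternatives. In the VTA at 1 day, limma on log2(RPKM + 0.1) called 1 of 27 members tested, beside 0.186% of all 15042 genes. At an unadjusted p under 0.05, 7 of 27 were higher after cocaine and 0 lower, where 11.1% and 4.29% of all genes were. The members' median log2 difference was 0.07, with 18 of 27 above 0, and that of all genes 0.03, with 58.9% above 0. The members' median ranged from 0.023 to 0.14 when 1 library was left out.

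Cacna1c (chr6:118542314-119146249 in mm9, minus strand) encodes the main L-type pore subunit of neurons. In the VTA at 1 day it was at 3.57, 3.86 and 4.00 RPKM after saline and at 4.51, 4.94 and 5.62 after cocaine. All 6 cocaine libraries lay above all 6 saline libraries, and groups without overlap were found for 1.67% of all genes tested. The log2 difference was 0.37 (SE 0.059, limma adjusted p = 0.040). The exact permutation test over the 924 divisions of the 12 libraries gave a two-sided p of 0.0022, the smallest it can give. The adjusted p ranged from 0.054 to 0.29 in the 15 alternatives in which the call was lost, which include leaving out any 1 library other than the cocaine library with choroid plexus genes, and the log2 difference stayed between 0.33 and 0.40 in these. In the VTA at 28 days Cacna1c was at 2.73, 3.61, 4.43, 4.71 and 6.51 RPKM after saline and at 3.97, 5.61 and 7.08 after cocaine, with overlap and a difference of 0.34 (SE 0.19, edgeR adjusted p = 0.48).

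Scn7a was at 0.242, 0.763 and 1.39 RPKM after saline and 1.19, 1.75 and 1.99 after cocaine in the VTA at 1 day, with 5 of 6 cocaine libraries above all saline libraries and a difference of 1.18 (SE 0.28, limma adjusted p = 0.12). Cacna1g was at 6.78, 8.24 and 8.69 RPKM after saline and 8.29, 9.73 and 13.5 after cocaine (0.32, SE 0.11, limma adjusted p = 0.22). Cacna1i, Cacna2d1 and Cacna1d also had an unadjusted p under 0.05, with differences of 0.33, 0.52 and 0.22. All 3 T-type genes and all 5 high-voltage-activated genes tested had differences above 0. Of the other families, 3 of 4 alpha2delta genes and 2 of 4 calcium channel beta subunits were above 0. Among the sodium channel genes it was 4 of 7 pore entries and 1 of 4 beta subunits.

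Marker genes of other cell types were also compared in the same VTA libraries. Of these, limma called 0 of 9 dopamine neuron genes and 0 of 5 cortical excitatory neuron genes tested. Midbrain dopamine neuron genes summed to 1091, 1958 and 2497 RPKM after saline and 657, 1207 and 1549 after cocaine at 1 day, with 5 of 9 tested at an unadjusted p under 0.05 and all 9 below 0. Microglia genes summed to 116 to 171 after saline and 75.4 to 119 after cocaine, with 7 of 8 at an unadjusted p under 0.05 and lower and 1 called by limma. Cortical excitatory neuron genes summed to 49.0 to 69.6 after saline and 51.0 to 109 after cocaine. Of the oligodendrocyte genes 0 of 8 had differences above 0, and of the endothelial genes 6 of 6, with 0 called in either list. Their part in the channel results was not tested, other than by a cortical covariate, under which limma called 0 members and 5 were higher at an unadjusted p under 0.05. With this covariate the members' median difference was 0.15, with 23 of 27 above 0. Without both choroid plexus libraries, 0 members were called by limma and 6 were higher at an unadjusted p under 0.05. The shares of all genes in the covariate fit and in this one are not given here.

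**Figure D4:**
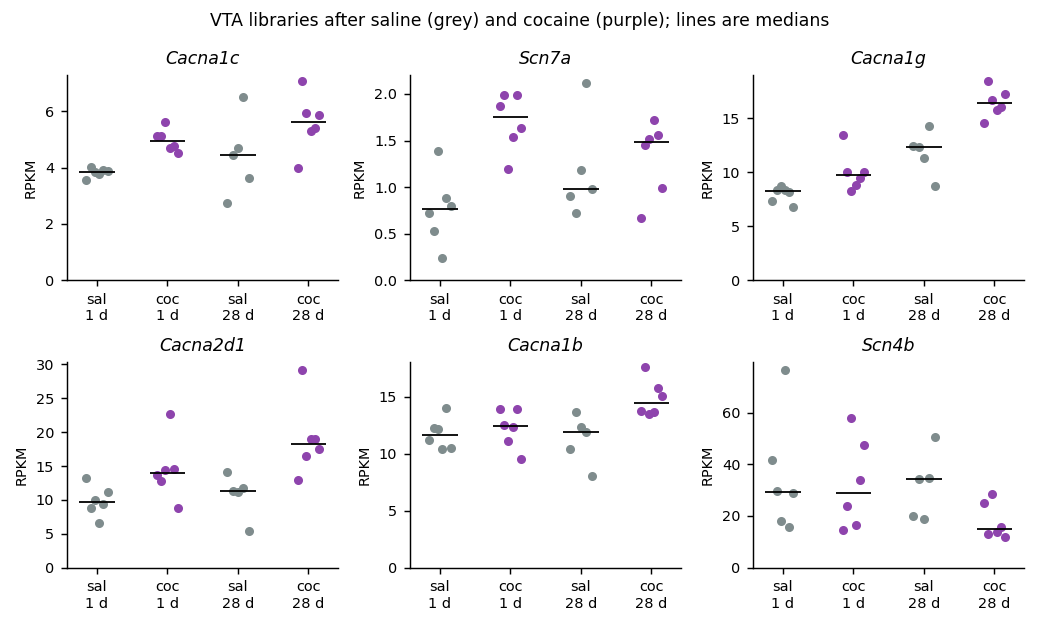
RPKM of selected members in VTA libraries after saline (grey) and cocaine (purple) at 1 and 28 days, with lines at the medians. The saline and cocaine libraries do not overlap for Cacna1c at 1 day and for Cacna1g at 28 days.

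At 28 days in the VTA, edgeR called 0 of 29 members and 0% of all 16937 genes, and DESeq2 called 1 member. With the cortical covariate edgeR called 2, Cacna1c and Cacna1h, both higher after cocaine, and 11 members were higher and 0 lower at an unadjusted p under 0.05. The shares of all genes in the DESeq2 and covariate fits are not given here, so these counts have no background. Without the covariate, at an unadjusted p under 0.05, 7 members were higher after cocaine and 2 lower, beside 5.08% and 6.39% of all genes. The median log2 difference of the 29 members was 0.26, with 25 of them above 0, while over all genes it was -0.03 with 43.1% above 0. It stayed between 0.23 and 0.30 when any 1 library was left out, and the number of members with an unadjusted p under 0.05 and higher then ranged from 5 to 14. All 6 high-voltage-activated pore genes, all 3 T-type genes, all 4 alpha2delta genes and all 4 beta subunit genes of the calcium channel that were tested lay above 0, with medians of 0.36, 0.25, 0.18 and 0.22. Among the sodium channel genes it was 6 of 8 pore entries and 2 of 4 beta subunits. None of these passed the test as a single gene in edgeR without the covariate.

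Cacna1g had the smallest p of the members. It was at 8.76, 11.3, 12.3, 12.4 and 14.2 RPKM after saline and 14.6, 16.4 and 18.5 after cocaine in the VTA at 28 days. The groups did not overlap, which held for 1.33% of all genes tested. The difference was 0.47 (SE 0.10, edgeR adjusted p = 0.39), the exact permutation p 0.0022, the smallest that the 462 divisions allow, and DESeq2 called it (0.48, adjusted p = 0.021). Cacna2d1 was at 5.39, 11.1, 11.3, 11.8 and 14.2 RPKM after saline and 12.9, 18.3 and 29.2 after cocaine, with 5 of 6 cocaine libraries above all saline libraries (0.81, SE 0.23, edgeR adjusted p = 0.39). Cacna1b was at 8.09, 10.4, 11.9, 12.3 and 13.7 RPKM after saline and 13.5, 14.4 and 17.6 after cocaine (0.39, SE 0.12, edgeR adjusted p = 0.39). Scn11a had a difference of 1.56 (SE 0.45, edgeR adjusted p = 0.39) at levels of at most 0.201 RPKM.

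Of the members with values lower after cocaine at an unadjusted p under 0.05, Scn4b was at 18.7, 20.1, 34.2, 34.8 and 50.4 RPKM after saline and 12.0, 14.8 and 28.5 after cocaine (-0.81, SE 0.30), and the groups overlapped. Scn2a1, outside the rule, was at 12.7 to 25.4 RPKM after saline and 26.0 to 34.5 after cocaine, without overlap (0.47, SE 0.15, edgeR adjusted p = 0.39). Of 13 sodium channel partners, 6 were higher at an unadjusted p under 0.05 and 0 were called by edgeR, among them Scn2a1, Unc79 (0.34), a subunit of the sodium leak channel complex, and Nedd4l (0.29), a ubiquitin ligase of sodium channels. Of 24 calcium channel partners, 2 were higher and 1 lower at that threshold, and the median was 0.02. Of all genes tested, 5.08% were higher and 6.39% lower at that threshold.

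In these libraries oligodendrocyte genes summed to 3717 to 7223 RPKM after saline and 2588 to 4650 after cocaine, and endothelial genes to 111 to 236 and 99.9 to 141. The dopamine neuron genes overlapped widely, at 661 to 2619 after saline and 852 to 2456 after cocaine. The part of these in the channel values was not tested.

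Of the 27 members tested at both times in the VTA, 17 had differences above 0 at both and 3 below 0 at both, beside 25.7% and 23.6% of all 14897 genes with a test at each time. An unadjusted p under 0.05 with a difference above 0 was found at both times for 3, among them Cacna1g (0.32 and 0.47) and Cacna2d1 (0.52 and 0.81), and for 0.524% of all these genes. The libraries of the 2 times are separate. The tables hold different units and the difference between times was not tested in the VTA.

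**Figure D5:**
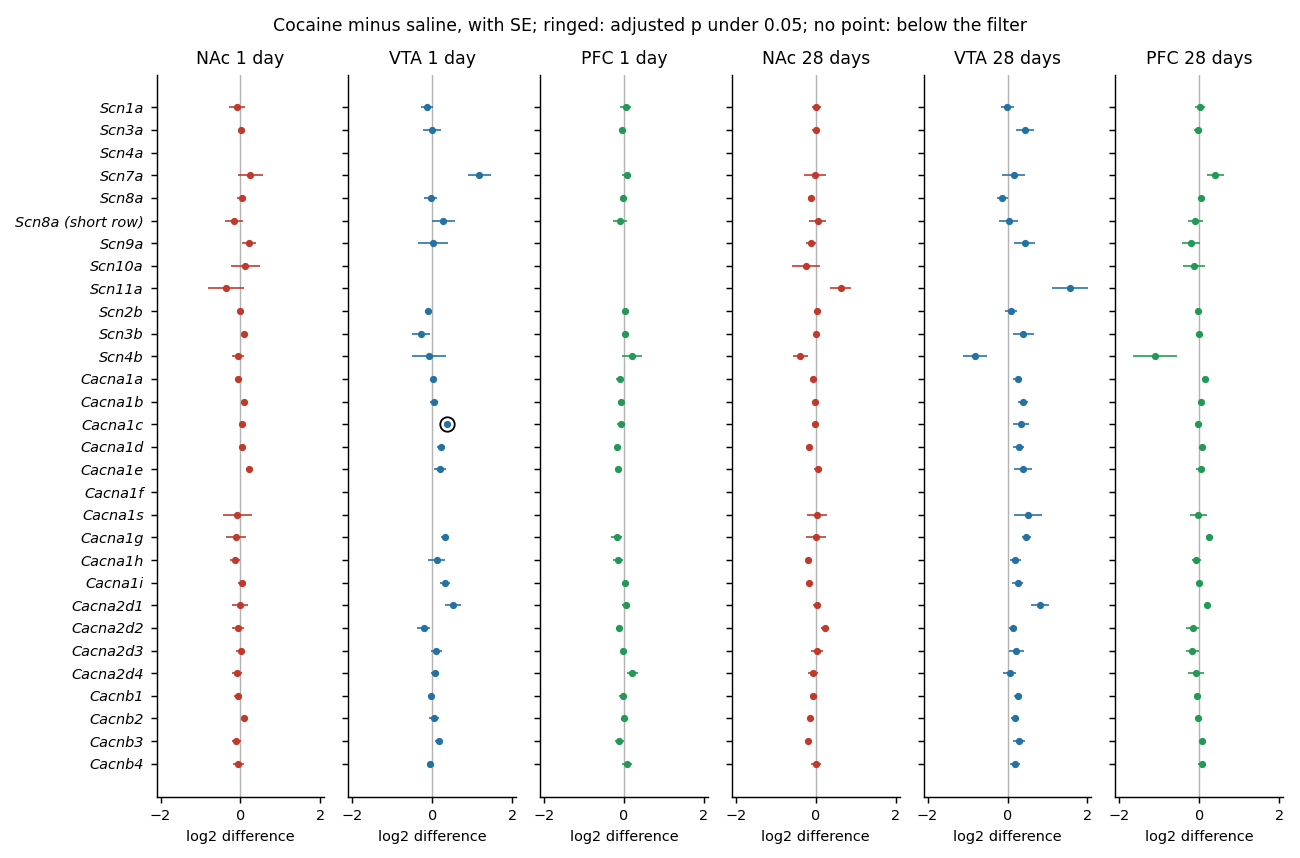
Log2 difference of cocaine minus saline with its SE for members in the 6 comparisons; a ring marks an adjusted p under 0.05 and a missing point a gene below the filter. The ring on Cacna1c in the VTA at 1 day is the only one, and most points of the VTA at 28 days lie right of 0.

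In the NAc at 1 day edgeR called 0 of 30 members, DESeq2 called 0, and 0.0126% of all 15878 genes were called. At an unadjusted p under 0.05, 1 member was higher and 0 lower, beside 2.76% and 1.25% of all genes. That member was Cacna1e, at 29.3, 34.1 and 37.6 RPKM after saline and 33.4, 39.6 and 40.4 after cocaine (0.22, SE 0.067, edgeR adjusted p = 0.99), with overlap. Cacnb2, Scn3b and Scn9a followed, with differences of 0.08, 0.10 and 0.22. Scn4b, the member most abundant in the NAc, was at 179.7, 208 and 234 RPKM after saline and 149, 179 and 255 after cocaine (-0.06, SE 0.15).

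In the NAc at 28 days edgeR and DESeq2 each called 0 of the members, and edgeR called 0% of all 16295 genes. At an unadjusted p under 0.05, 2 of 30 were higher and 6 lower, beside 3.34% and 3.42% of all genes. Cacnb3 was at 63.8, 69.0 and 82.6 RPKM after saline and 52.6, 62.3 and 69.6 after cocaine (-0.20, SE 0.078, edgeR adjusted p = 0.68). Cacna2d2 was at 20.0, 22.9 and 28.0 RPKM after saline and 22.4, 28.1 and 33.8 after cocaine (0.24, SE 0.098, edgeR adjusted p = 0.69). Cacna1i had a difference of -0.17 (SE 0.073) and Scn11a one of 0.62 (SE 0.27), both with an edgeR adjusted p of 0.69. All of these groups overlapped, as did those of every member in the NAc and in the PFC. The members lower at that threshold also included Cacna1h, Cacna1d and Scn8a. Of the 4 sodium channel beta subunits, 1 had an edgeR unadjusted p under 0.05, and their differences ran from -0.39 to 0.02. The ratio of Scn4b to Scn2b RPKM had a median of 3.25 after saline (2.14 to 4.66) and 2.54 after cocaine (2.07 to 3.37). The change in this ratio was not tested. The number of members lower ranged from 2 to 7 when 1 library was left out, and the number higher from 0 to 3. Cortical excitatory neuron genes summed to 35.1, 85.6 and 208 RPKM after saline and 25.7, 53.2 and 230 after cocaine in these libraries. Of 9 tested, 2 had differences above 0, as did 1 of 9 striatal medium spiny neuron genes. In both lists 0 had an edgeR unadjusted p under 0.05. Their part in the channel values was not tested, and the cortical covariate was fitted in the VTA only.

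The change of the cocaine effect between 1 and 28 days in the NAc was tested as an interaction over all 24 libraries. edgeR called 0 of 30 members, beside 0.0181% of all 16612 genes, and 1 member had an unadjusted p under 0.05, beside 5.27% of all genes. It was Cacnb2, whose cocaine effect at 28 days minus that at 1 day was -0.20 (SE 0.082, edgeR adjusted p = 0.93), and Cacna1d followed (-0.19, SE 0.097).

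In the PFC at 1 day limma called 0 of 25 members, edgeR on the recovered reads called 0, and 0.00693% of all 14427 genes were called. At an unadjusted p under 0.05, 0 members were higher and 0 lower, where 1.64% and 2.50% of all genes were. The members with the smallest p were Cacna1d, at 7.54, 8.25 and 9.58 RPKM after saline and 6.23, 7.69 and 8.36 after cocaine (-0.17, SE 0.081, limma adjusted p = 0.92), Cacna1e (-0.15), Cacna2d4 (0.21) and Cacna1g (-0.18). In the PFC at 28 days edgeR and DESeq2 each called 0 of the members, and edgeR 0% of all 16340 genes. There, 2 of 29 members were higher at an unadjusted p under 0.05 and 0 lower, beside 2.69% and 2.97% of all genes.

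Those 2 were Cacna1g and Cacna2d1, which had an unadjusted p under 0.05 in the VTA at 28 days too. In the PFC Cacna1g was at 8.75, 13.6 and 14.0 RPKM after saline and 13.9, 14.7 and 17.3 after cocaine, with 5 of 6 cocaine libraries above all saline libraries (0.25, SE 0.095, edgeR adjusted p = 0.84). Cacna2d1 was at 16.8, 21.1 and 25.2 RPKM after saline and 21.3, 23.8 and 25.6 after cocaine (0.19, SE 0.081, edgeR adjusted p = 0.84). The regions at 28 days are separate libraries, and it is not known here whether they came from the same mice. Cacna1a had a difference of 0.13 (SE 0.066). Scn4b was at 8.31, 17.9 and 127 RPKM after saline and 9.09, 17.03 and 20.4 after cocaine, a difference of -1.11 (SE 0.56, edgeR adjusted p = 0.84), which was 0.03 (SE 0.24) without the saline library with striatal genes.

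Whether the cocaine effect differed between regions at 28 days was tested as an interaction over the 35 libraries. edgeR called 0 of 30 members, beside 0.0339% of all 17679 genes, and 10 of 30 had an unadjusted p under 0.05, beside 9.12% of all genes. Cacna2d1 (0.02 in the NAc, 0.81 in the VTA, 0.19 in the PFC) and Cacnb3 (-0.20, 0.29 and 0.07) had the smallest p, with adjusted p of 0.29 and 0.33 by edgeR. In the fit without 1 of the VTA saline libraries, 1 member was called, Cacnb1, with an edgeR adjusted p of 0.020. The share of all genes called in that fit is not given here.

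Opposite-strand genes share exon bases with 8 members, namely Cacna1a, Cacna1d, Cacna1h, Cacna2d2, Cacnb1, Cacnb2, Cacnb4 and Scn9a, and the strand of counting is not given in the sources used here, so their reads could include those of the partner.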

How the data were processed

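RNA-seq of 71 libraries in 12 groups was analysed, with groups taken from the sample labels. Columns at 28 days could be assigned to a group, though not to one labelled sample. The authors aligned reads with STAR 2.4.1d to mm9, using Ensembl genes, and 4 of the deposited tables hold unnormalized read counts. The other 2, VTA and PFC at 1 day, were deposited as RPKM. Each table also holds the authors' own fold changes and p-values, which were not used, and 30 columns of values per library that belong to no labelled sample were not used. The strand of counting is not given in the sources used here.

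Counts were tested with edgeR 4.0.16 in R 4.3.3 (filterByExpr, minimum count 10, minimum total 15, TMM, glmQLFit and glmQLFTest), and RPKM with limma 3.58.1 after a log2(RPKM + 0.1) transform, keeping genes that averaged 0.5 RPKM or more. RPKM differences are on that scale and understate changes of low genes. p-values were adjusted over all genes tested by the Benjamini-Hochberg method and called under 0.05. The SE of an edgeR difference was computed from its F statistic. Single genes were compared by two-sided exact permutation tests. Levels in the count tables were converted to RPKM with the gene lengths implied by the RPKM tables. Whole reads were recovered from the RPKM values for all 23806 genes with reads in the VTA and all 23353 in the PFC (100% of values whole, tolerance 0.001), and these were used in the region contrasts at 1 day and as an alternative.

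Statistics given in full are those of the members called, of the 4 with the smallest unadjusted p in each cocaine comparison, and of the 4 called members with the largest differences in each direction and the most abundant of each family in each region contrast. Other members are given by level, range or count, and some members, though counted, are not reported singly here. Members, lists and tests were chosen with earlier results of these data known. Values were identical in no 2 libraries of the same group, and the closest pair differed by a chi-square of 4.38 per degree of freedom. The scripts were tested on simulated data. At this number of libraries and at 20971967 to 49700932 reads each, intervals on read counts cover counting error only. The alternatives were DESeq2 1.42.0, its size factors, testing without the low-value filter, a pseudocount of 1, an adjusted p under 0.25, a 2-fold minimum for regions, the replicate block, a cortical covariate, recovered reads, and each library left out in turn. Libraries were left out in turn in the cocaine and the region comparisons. The interaction with region was refitted without each VTA saline library only, and that with time without leaving any out. Leaving out both choroid plexus libraries was added after seeing the data. Plots used matplotlib 3.10.9, and the tables Python 3.11.15, numpy 2.4.6, pandas 2.3.3 and scipy 1.17.1.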

Additional observations from a re-analysis of the deposited data

Results flagged for a closer look

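A library stood far from the others of its group, by Dixon's criterion, in 9 of the 87 levels tested in groups of 5 or 6. The criterion picks about 1 in 20 groups by chance. The value given for each is the gap to the nearest library divided by the range of the group. Of these, 4 were in PFC saline at 28 days and came from the library with striatal genes: Scn4b (0.873, 127 RPKM against 23.4), Cacna2d2 (0.852, 12.7 against 7.10), Cacna2d3 (0.740, 40.6 against 23.4) and Scn9a (0.633, 0.472 against 0.284). In the same group Cacna1g was lowest in 1 library (0.805, 8.75 RPKM).

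Cacna1g also had a low library in PFC cocaine at 1 day (0.801, 4.95 RPKM against 8.31) and a high one in VTA cocaine at 1 day (0.659, 13.5 against 10.0). In the VTA at 28 days, 1 cocaine library was high for Cacna2d1 (0.626, 29.2 RPKM against 19.0) and 1 saline library low for Cacnb3 (0.735, 16.0 against 26.1).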

How the results depend on the processing

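In the VTA at 1 day 1 member was called. An adjusted p under 0.25 gave 4, edgeR on recovered reads 2 (among them Cacna1c, adjusted p = 0.040), and no filter, a cortical covariate and leaving out both choroid plexus libraries 0 each. Leaving out 1 library gave 0 to 1, and the cause was not tested. In the VTA at 28 days, with 0 called, DESeq2 gave 1 (Cacna1g) and the cortical covariate 2 (Cacna1c and Cacna1h). The interaction with region, refitted only without each VTA saline library in turn, went from 0 to between 0 and 1. The shares of all genes called in these alternatives are not given here.

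With a 2-fold minimum the regional counts fell from 22 to 14 (NAc and VTA), 16 to 7 (NAc and PFC) and 22 to 12 (VTA and PFC), since smaller differences no longer counted. Without 1 library they ranged from 20 to 23, 15 to 19 and 21 to 22. Scn4b in the PFC at 28 days ranged from -1.32 to 0.034 without 1 library, the last without the library with striatal genes. Scn7a, VTA minus PFC, was -0.057 at 1 day and -0.17 with the replicate block, and Scn9a, NAc minus VTA, had an adjusted p of 0.054 to 0.11 in edgeR without any of 4 libraries. DESeq2's size factors, and the pseudocount of 1, left every count as it was.

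It was not settled whether the replicate numbers pair the libraries at 1 day. Correlations of same-numbered cocaine and saline libraries ran from -0.54 to 0.67 in the NAc, -0.28 to 0.48 in the VTA and -0.18 to 0.08 in the PFC. They were above 0.1 for 3 of 6 pairs in the NAc, 4 of 6 in the VTA and 0 of 6 in the PFC. The cocaine libraries closest to the saline library of their own number were 2 in the NAc, 2 in the VTA and 0 in the PFC. With the replicate block 0 members were called in the VTA at 1 day (Cacna1c adjusted p = 0.086 by limma), 0 in the NAc and 0 in the PFC. The 28-day columns carry no numbers from the labels, so no block was fitted there.

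Changes much smaller than the spread of 5 or 6 libraries were not detectable gene by gene, and genes below 0.1 RPKM rest on few reads.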
